A study of Homo sapiens with 18 samples.

Results

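Transcripts of 10 cytosolic heat shock genes were followed in Hep3B cells, a human hepatoma line, exposed to free fatty acids (FFA) and to fucoxanthin (FUCO), a marine carotenoid, or Resmetirom (RES), an agonist of the thyroid hormone receptor beta. The genes were HSPA6, HSPA1A, HSPA1B, HSPA8, DNAJB1, HSPH1, BAG3, HSPB1, HSP90AA1 and HSF1, 10 of the 36684 gene symbols counted. They were selected on their measured changes at 1 and 2 µM FUCO and with RES against FFA alone, which were already known, so their values against the model in those groups, and between both FUCO doses, are a description and carry no test. The other comparisons of these genes were tested, and shared libraries with the ones that guided the choice are named beside them. Of the 10 genes, 9 passed the filter on low counts and were tested together with 14557 genes in all. HSPA1B did not pass, and HSPA6, with 3 counts over the Con libraries, passed through the groups in which it was higher.

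The 18 poly(A)-enriched RNA libraries fell into 6 groups of 3. Con was the control, the model received FFA, FUCO-0.5, FUCO-1 and FUCO-2 received FFA with 0.5, 1 and 2 µM FUCO, and the RES group received FFA with RES. All groups are the same single cell line, and the FFA concentration, the treatment times and the RES dose of these libraries are not given in the sources used here. The methods call the 3 libraries of a group biological replicates without saying what separates them, so p-values measure the spread between these libraries.

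Heat shock proteins are chaperones that keep other proteins folded. HSP70 proteins hold unfolded segments in a cycle driven by ATP, in which J-domain proteins such as DNAJB1 start the ATP hydrolysis and exchange factors such as HSPH1 and BAG3 release the nucleotide. HSP90 finishes the folding of kinases and receptors together with its own cochaperones, and small heat shock proteins such as HSPB1 hold unfolded proteins without ATP. When unfolded proteins build up, the transcription factor HSF1 forms a trimer and binds heat shock elements, which are repeats of nGAAn in alternating orientation, in front of these genes. HSP70 and HSP90 genes are also expressed in unstressed liver cells, whereas HSPA6 is known for its near absence without stress.

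Each library held between 16916688 and 23083498 counts, and every pair of replicates differed by more than the sampling noise (chi-square per degree of freedom from 2.34 to 20.03, the last between FUCO-2 replicates 1 and 2). The defining hepatocyte markers were present, with ALB and AFP at means of 40980 and 6362 CPM in Con (CPM, counts scaled by the TMM-adjusted library size). The summed level of the 8 hepatocyte markers ran from 62263 to 70211 CPM in Con, 51599 to 52106 in the model, 34770 to 39090 at FUCO-2 and 14936 to 15294 with RES. The 12 markers of immune, endothelial and stellate cells summed to between 1.67 and 4.6 CPM in every library, with CD163, MARCO, COL3A1 and ACTA2 at 0 counts. The hepatocyte markers moved in the groups in which the heat shock genes differed most, and their part in the values below was not tested. In bulk RNA, a lower share of cells and less RNA per cell cannot be told apart.

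The promoters are shown because the heat shock element is the feature that these genes are known to share. RefSeq promoters (GRCh38.p14) matched 9 of the 10 genes. Of the windows listed, the 250 bases before the start are printed only for some that hold heat shock element letters, 5′ to 3′ on the strand of the gene. Capitals mark heat shock element letters, either 2 units (GAANNTTC or TTCNNGAA) or 3 units (GAANNTTCNNGAA or TTCNNGAANNTTC). The window of HSPA6 lies at chr1:161524290-161524539 on the + strand, HSPA1A at chr6:31815293-31815542 (+), HSPA8 at chr11:123062137-123062386 (−), the second listed start of DNAJB1 at chr19:14518398-14518647 (−) and the second listed start of HSP90AA1 at chr14:102087045-102087294 (−).
HSPA6: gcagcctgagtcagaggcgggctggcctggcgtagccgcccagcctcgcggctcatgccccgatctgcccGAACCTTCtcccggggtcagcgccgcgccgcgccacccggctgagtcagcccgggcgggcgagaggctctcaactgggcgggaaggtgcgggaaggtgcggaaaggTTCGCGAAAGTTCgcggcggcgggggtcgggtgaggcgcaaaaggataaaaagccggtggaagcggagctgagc
HSPA1A: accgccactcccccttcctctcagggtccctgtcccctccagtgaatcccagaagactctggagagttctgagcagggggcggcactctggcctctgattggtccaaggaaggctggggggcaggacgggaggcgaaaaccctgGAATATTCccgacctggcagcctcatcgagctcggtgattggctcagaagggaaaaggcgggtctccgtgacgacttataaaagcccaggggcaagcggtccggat
HSPA8: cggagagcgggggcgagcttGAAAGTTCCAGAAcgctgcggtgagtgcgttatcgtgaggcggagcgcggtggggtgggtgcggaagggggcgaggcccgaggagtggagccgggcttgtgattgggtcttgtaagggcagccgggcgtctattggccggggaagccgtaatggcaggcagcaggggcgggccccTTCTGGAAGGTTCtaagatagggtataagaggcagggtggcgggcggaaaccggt
DNAJB1: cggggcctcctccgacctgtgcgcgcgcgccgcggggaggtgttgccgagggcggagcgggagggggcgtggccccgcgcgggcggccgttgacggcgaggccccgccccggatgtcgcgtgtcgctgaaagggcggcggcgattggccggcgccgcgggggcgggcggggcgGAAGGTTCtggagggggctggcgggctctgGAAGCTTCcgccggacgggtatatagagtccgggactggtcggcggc
HSP90AA1: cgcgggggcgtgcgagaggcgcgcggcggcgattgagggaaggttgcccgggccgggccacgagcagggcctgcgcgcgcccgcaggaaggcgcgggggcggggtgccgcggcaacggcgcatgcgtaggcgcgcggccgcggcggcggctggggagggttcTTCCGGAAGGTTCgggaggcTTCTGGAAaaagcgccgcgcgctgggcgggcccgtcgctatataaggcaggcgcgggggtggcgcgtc

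Counting bases from the start, the 3 units of HSPA6 lay at −74 to −62, with a further pair of units at −180 to −173. HSPA8 held 3 units in 2 places, at −230 to −218 and −55 to −43, and HSP90AA1 held them at −88 to −76 of its second start. The single match of HSPA1A had 2 units, at −106 to −99, and DNAJB1 had 2 units at −77 to −70 and again at −47 to −40 of its second start. HSPA1B (−105 to −98) and HSPB1 (−182 to −175) each had 2 units. Over the full windows, from 250 bases before to 50 after the start, 3 of the 10 genes held 3 units and 7 held at least 2. Among all 35116 windows of the same length, 0.49% held 3 units and 13.5% held at least 2, on either strand, where each 3-unit match also contains both 2-unit forms. The letters were not found in the windows of HSPH1, BAG3 and the first listed starts of DNAJB1 and HSP90AA1. This says only that these spellings are not in these windows.

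**Figure D1:**
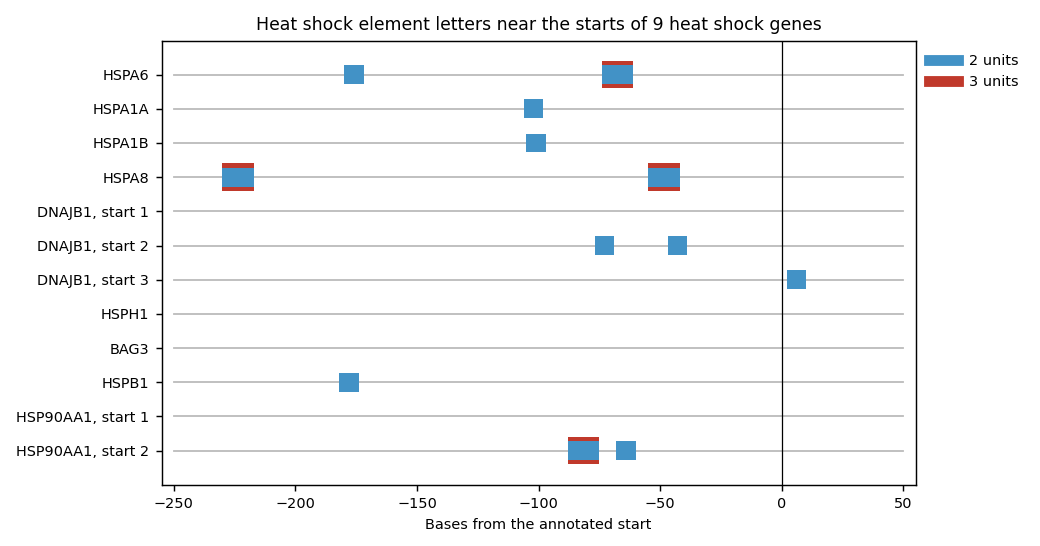
Heat shock element letters in the RefSeq windows of 9 heat shock genes, with 1 line per listed start and the distance from that start in bases on the x axis. Blue boxes are 2 units and red boxes 3 units. HSPA6, HSPA8 and the second start of HSP90AA1 carry the 3-unit form. The lines of HSPH1, BAG3 and the first starts of DNAJB1 and HSP90AA1 are empty.

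The strictly inducible HSP70 gene HSPA6 had the widest relative range of the 10. HSPA6 held 1, 0 and 2 counts in Con, 13, 10 and 11 with FFA alone, 20, 18 and 13 at FUCO-0.5, 36, 30 and 38 at FUCO-1, 169, 203 and 112 at FUCO-2 and 33, 29 and 27 with RES. In CPM, these were 0.0553 ± 0.0541 in Con, 0.622 ± 0.0815 in the model, 0.921 ± 0.187, 1.86 ± 0.275 and 9.01 ± 2.25 at the rising FUCO doses and 1.38 ± 0.157 with RES (mean ± SD, n = 3 here and for all levels that follow). All Con libraries lay below all others, and all FUCO-2 libraries lay above all others. Between the steps of the series, the model and FUCO-0.5 libraries of HSPA6 did not overlap, with 0.713 CPM as the highest model value and 0.726 as the lowest at FUCO-0.5, and those of RES lay between FUCO-0.5 and FUCO-1. Set against the 3 Con counts, the ratio of counts was 10.9 (95% counting interval 3.42 to 55.4) in the model, 16.2 (5.23 to 81.0) at FUCO-0.5, 32.5 (10.8 to 160.3) at FUCO-1, 159 (54.0 to 771.9) at FUCO-2 and 24.1 (7.97 to 118.9) with RES. These exact intervals cover counting error only, and no molecular identifiers are named in the sources used here.

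HSPA6 (chr1:161524540-161526894, a single exon) shares 15.3% of its 150-base windows with the transcript of its neighbour HSPA7. HSPA7 itself held no count in Con, 2, 3 and 1 with FFA alone, 22, 9 and 10 at FUCO-2 and 0, 4 and 1 with RES. Whether reads with several matches were counted is not given in the sources used here, so the split between both is uncertain. With both summed, the log2 fold change of HSPA6 at FUCO-2 against the model was 3.73, against 3.84 for HSPA6 alone.

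HSPA1A, the major inducible HSP70, rested on few reads in these cells. HSPA1A held 79, 61 and 64 counts in Con, 63, 76 and 73 with FFA alone, 87, 76 and 80 at FUCO-0.5, 104, 93 and 92 at FUCO-1, 143, 169 and 138 at FUCO-2 and 44, 40 and 45 with RES. The group means were 3.89 ± 0.592, 3.88 ± 0.392, 4.40 ± 0.404, 5.16 ± 0.0882, 8.41 ± 0.527 and 2.01 ± 0.204 CPM in the same order. The FUCO-1 libraries lay above those of the model and the FUCO-2 libraries above all others, while the RES libraries lay below all others. Its neighbour HSPA1B, which encodes the same protein, held between 0 and 5 counts in each of the 18 libraries, and 69.6% of the 150-base windows of HSPA1A (chr6:31815543-31817942) recur in the transcript of HSPA1B. With both summed, the log2 fold change at FUCO-2 was 1.12, the same as for HSPA1A alone, and that of RES was −0.92, next to −0.95 for HSPA1A alone.

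HSPA8, the constitutive HSP70 of the cytosol, was among the most abundant transcripts of the group. The HSPA8 libraries stood at 947, 1068 and 1012 CPM in Con, 757, 683 and 919.7 with FFA alone, 874, 811 and 937 at FUCO-0.5, 923, 887 and 922 at FUCO-1, 1092.5, 1306 and 1187 at FUCO-2 and 846, 1064 and 1082 with RES. The model lay below Con without overlap, and FUCO-2 lay above all other groups, Con included. FUCO-0.5 and FUCO-1 overlapped the model, and RES overlapped both the model and Con.

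The cochaperones of HSP70 had smaller relative ranges than HSPA6 and HSPA1A. DNAJB1 stood at 156 ± 9.54 CPM in Con, 141 ± 11.5 in the model, 136 ± 13.1 at FUCO-0.5, 137 ± 12.3 at FUCO-1, 201 ± 9.02 at FUCO-2 (193, 211 and 201) and 165 ± 9.76 with RES. HSPH1 stood at 69.4 ± 7.45, 61.0 ± 4.52, 70.2 ± 9.61, 68.0 ± 7.43, 118 ± 18.8 (109, 139.8 and 106) and 78.7 ± 5.52 CPM in that order of groups. For both genes the FUCO-2 libraries lay above all 15 others, and Con, the model, FUCO-0.5 and FUCO-1 overlapped one another. BAG3, which links HSP70 to small heat shock proteins and to autophagy, had means of 30.3 ± 0.983 CPM (Con), 31.7 ± 1.53 (model), 30.4 ± 4.19 (FUCO-0.5), 30.4 ± 1.81 (FUCO-1), 39.5 ± 4.51 (FUCO-2, 43.8, 39.7 and 34.8) and 35.6 ± 0.34 (RES). The lowest FUCO-2 library of BAG3 lay under all RES libraries and under the highest of FUCO-0.5, but above the model.

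**Figure D2:**
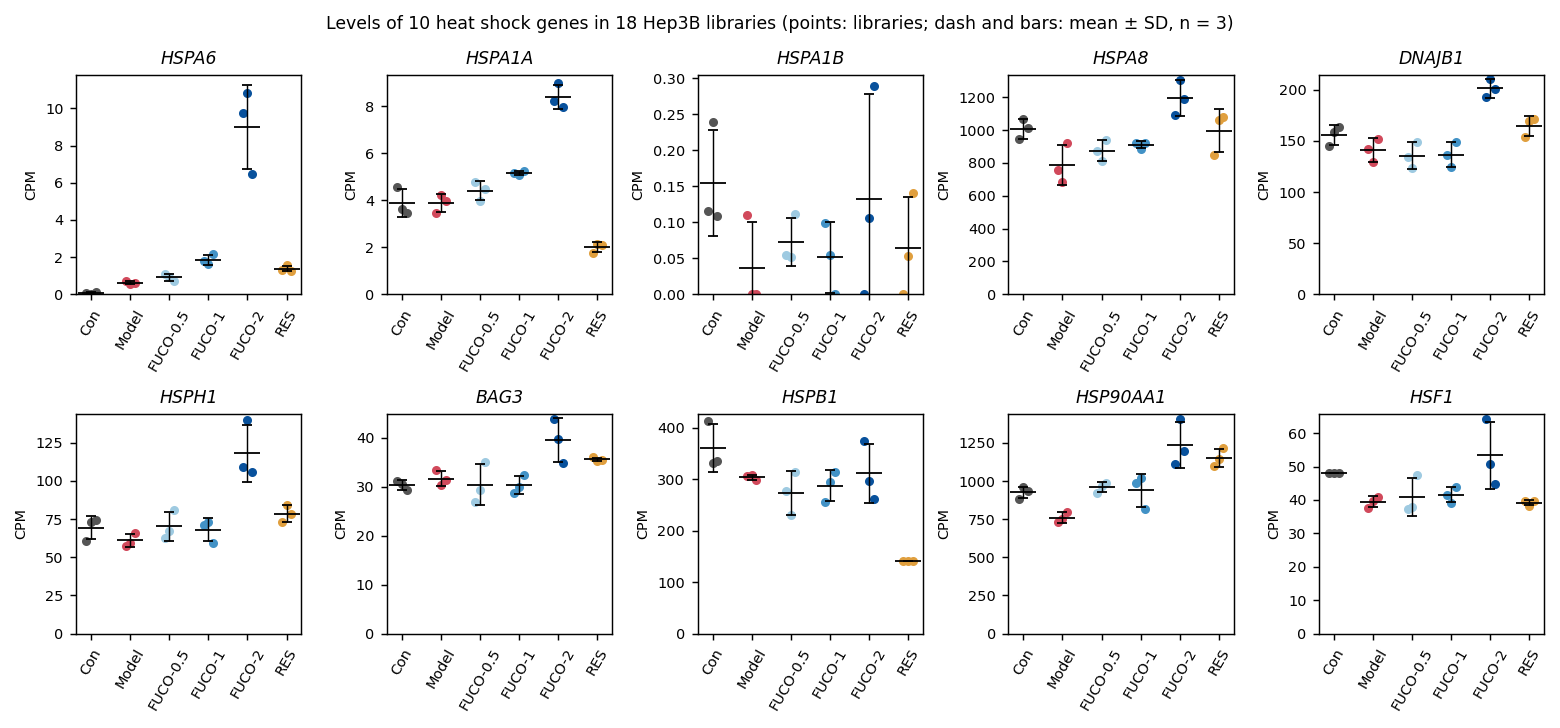
Level of each of the 10 genes in the 18 libraries, in CPM on an axis that starts at 0, by group on the x axis. Points are libraries and the dash and bars are the mean ± SD of 3. The FUCO-2 libraries of HSPA6, HSPA1A, HSPA8, DNAJB1 and HSPH1 lie above all others, and the RES libraries of HSPA1A and HSPB1 lie below all others.

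HSP90AA1, the inducible cytosolic HSP90, stood at 884, 958 and 936 CPM in Con, 729.9, 748 and 800.4 with FFA alone, 924, 966 and 987 at FUCO-0.5, 987, 1018 and 815 at FUCO-1, 1113, 1407 and 1197 at FUCO-2 and 1096, 1145 and 1215 with RES. The 3 model libraries were the lowest of all 18. FUCO-2 and RES overlapped, and both lay above Con.

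HSPB1, the small heat shock protein also called HSP27, followed another order. HSPB1 stood at 413, 331 and 336 CPM in Con, 305, 308 and 298 with FFA alone, 374, 297 and 262 at FUCO-2 and 142, 141 and 140.1 with RES. Its means of 273 ± 42.2 CPM at FUCO-0.5 and 288 ± 29.9 at FUCO-1 overlapped the model, as did FUCO-2. The RES libraries lay below all others and differed among themselves by an SD of 0.887 CPM.

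HSF1, the factor known to activate heat shock genes, had a mean of 48.0 ± 0.0213 CPM over Con, against 39.5 ± 1.62 for the model. Its level was 41.0 ± 5.67 at FUCO-0.5, 41.5 ± 2.30 at FUCO-1, 53.4 ± 9.98 at FUCO-2 (64.3, 50.9 and 44.8) and 39.2 ± 0.791 with RES. The FUCO-2 libraries of HSF1 lay above the model and overlapped Con. Within FUCO-2, replicate 1 was the highest for BAG3, HSPB1 and HSF1, and replicate 2 was the highest for the other 6 genes tested.

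Compared per kilobase of transcript, the 9 genes spanned a wide range of levels. In the model, HSPB1 stood at 391 ± 6.81 CPM per kilobase, HSPA8 at 347 ± 53.5, HSP90AA1 at 235 ± 11.3 and DNAJB1 at 62.9 ± 5.13. The libraries of HSPB1 and HSPA8 overlapped on this scale. HSF1 stood at 18.5 ± 0.760, BAG3 at 12.4 ± 0.596, HSPH1 at 11.6 ± 0.862, HSPA1A at 1.62 ± 0.163 and HSPA6 at 0.264 ± 0.0346. At FUCO-2, HSPA8 led with 528 ± 47.4, ahead of HSPB1 with 400.3 ± 73.6 and HSP90AA1 with 384 ± 46.8, of which the last 2 did not differ beyond their spread. HSPA6 reached 3.82 ± 0.957 per kilobase there, next to HSPA1A with 3.50 ± 0.220, and the libraries of these 2 genes overlapped. BAG3 and HSPH1 also overlapped in the model.

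The first comparison asks what the fatty acids did to these genes. In the model against Con, HSPA8 and HSP90AA1 fell and HSPA6 stood higher, while the other 6 genes tested did not pass. HSPA6 had a log2 fold change of 3.30 with an SE of 0.630, given as a description because the gene passed the filter through the groups in which it was higher. This size depends on the prior count, since Con held 3 counts, and became 2.15 with a prior count of 2. HSPA8 was lower by a log2 fold change of −0.36 ± 0.0999 (adjusted p = 0.0139 by edgeR's quasi-likelihood test) and HSP90AA1 by −0.29 ± 0.0863 (adjusted p = 0.0232). The values for HSF1 (−0.28 ± 0.103, adjusted p = 0.0583) and HSPB1 (−0.25 ± 0.113, adjusted p = 0.14) did not pass although all model libraries lay below Con. HSPH1 (−0.18, adjusted p = 0.276) and DNAJB1 (−0.14, adjusted p = 0.255) overlapped Con, and BAG3 and HSPA1A were not called.

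Of all genes tested, 17.6% were called between the model and Con, 8.43% higher and 9.12% lower, beside 1 higher (HSPA6) and 2 lower of these 9. Groups did not overlap for 5 of the 9 and for 35.7% of all genes, and the median log2 fold change was −0.18 for the 9 and 0 for all genes. This comparison shares the model libraries with the comparisons that guided the choice of genes. The call of HSPA8 was lost without Con replicate 2 (adjusted p = 0.0707), model replicate 1 (0.0615) or model replicate 2 (0.11), and that of HSP90AA1 without Con replicate 2 (0.0887) or 3 (0.0705) or model replicate 1 (0.0938) or 2 (0.0779). HSF1 passed when FUCO-0.5 replicate 3 (adjusted p = 0.038), FUCO-2 replicate 1 (0.0171) or FUCO-2 replicate 3 (0.0354) was left out of the shared estimate of spread, and HSF1 and HSPB1 both passed when the model and Con were fitted alone (0.0109 and 0.0471) or with no filter on low counts (0.0238 and 0.0209).

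At the lowest dose, HSP90AA1 was the member that rose against the model. HSP90AA1 was higher at FUCO-0.5 by 0.34 ± 0.0863 on the log2 scale (adjusted p = 0.0474), with all 3 libraries above the model. HSPA6 had a log2 fold change of 0.56 ± 0.342 (adjusted p = 0.573) with no overlap between the groups. The values of HSPH1 (0.20, adjusted p = 0.518), HSPA1A (0.18, adjusted p = 0.719), HSPA8 (0.15, adjusted p = 0.617) and HSPB1 (−0.15, adjusted p = 0.684) did not pass. Of all genes 1.45% were called here, 0.289% higher and 1.16% lower, beside 1 of the 9. Groups did not overlap for 2 of the 9 and for 19.6% of all genes. The HSP90AA1 call was lost in 13 of 26 alternative fits with adjusted p from 0.00168 to 0.228 over all 26. Of the libraries compared, each of the 6 was needed for the call (adjusted p from 0.0857 to 0.228 without it), and the others took it no further than 0.0679. This comparison shares the model libraries as well.

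FUCO-0.5 against Con shares no library with the comparisons that guided the choice, but those libraries enter the shared estimate of spread. FUCO-0.5 differs from Con by both FFA and FUCO, so the part of each cannot be told apart here. HSPA6 stood higher by 3.87 ± 0.576 on the log2 scale, or 2.65 with a prior count of 2, again as a description, and HSPB1 fell with a log2 fold change of −0.40 ± 0.113 (adjusted p = 0.0127 by edgeR). HSF1 (−0.23, adjusted p = 0.11), HSPA8 (−0.21, adjusted p = 0.143) and DNAJB1 (−0.20, adjusted p = 0.0858) did not pass. HSP90AA1 stood at 959 ± 31.9 CPM against 926 ± 38.1 in Con and was not called. These calls, 1 higher (HSPA6) and 1 lower of 9, stand beside 10.4% higher and 11.4% lower of all genes, 21.9% together. The HSPB1 call was lost without Con replicate 1 (adjusted p = 0.0771), its highest Con library, or FUCO-0.5 replicate 2 (0.0922), while DNAJB1 (0.0335) and HSF1 (0.0226) passed without FUCO-0.5 replicate 3, DNAJB1 without Con replicate 1 (0.048) and HSF1 without FUCO-2 replicate 1 (0.0443).

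At the highest dose, 8 of the 9 genes had all 3 libraries above the model. The log2 fold changes at FUCO-2 against the model, given as a description, were 3.84 ± 0.244 for HSPA6, 1.12 ± 0.138 for HSPA1A, 0.95 ± 0.111 for HSPH1 and 0.71 ± 0.0866 for HSP90AA1. Those of HSPA8 (0.60 ± 0.10), DNAJB1 (0.51 ± 0.0833), HSF1 (0.43 ± 0.102) and BAG3 (0.32 ± 0.0932) were smaller, and HSPB1 overlapped the model. The inducible HSP70 genes HSPA6 and HSPA1A and the exchange factor HSPH1 stood at the top of this order. HSF1 and BAG3, also an exchange factor, stood near its end. The median log2 fold change of the 9 was 0.60, against 0.01 for all genes. Of all genes 20.5% were called, 10.8% higher and 9.71% lower, and 36.3% did not overlap the model, beside 8 of these 9 on each count, from which nothing is read since these values guided the choice. The summed hepatocyte markers were lower than in the model at this dose, and their part was not tested.

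The middle dose gave a shorter list. At FUCO-1 against the model the log2 fold changes were 1.57 ± 0.300 for HSPA6, 0.41 ± 0.145 for HSPA1A and 0.31 ± 0.0863 for HSP90AA1, the 3 genes whose libraries did not overlap the model. HSPA8 (0.21 ± 0.0998) and HSPH1 (0.16 ± 0.111) overlapped it. Beside the 2 of 9 called here stand 3.21% of all genes (0.893% higher and 2.32% lower), and beside the 3 that did not overlap stand 23.3%. Nothing is read from these counts, since the values guided the choice and HSPA6 passed the filter through groups in which it was higher. The call of HSP90AA1 was lost in 13 of 26 alternative fits. Between FUCO-1 and FUCO-2 the differences were 2.27 ± 0.202 for HSPA6, 0.80 ± 0.110 for HSPH1, 0.70 ± 0.133 for HSPA1A and 0.56 ± 0.0833 for DNAJB1. HSP90AA1 (0.40 ± 0.0862), HSPA8 (0.39 ± 0.0998), BAG3 (0.38 ± 0.0933) and HSF1 (0.36 ± 0.102) followed. In this step 8 of the 9 were called, beside 6.3% of all genes (4.07% higher and 2.23% lower). The 8 became 4 without FUCO-2 replicate 2 and 5 without FUCO-1 replicate 1 or 3. Nothing is read from these counts either. DNAJB1, BAG3 and HSF1 differed from the model by less than 0.15 at FUCO-0.5 and FUCO-1, and by 0.51, 0.32 and 0.43 at FUCO-2. The libraries of HSPA6, HSPA1A and HSP90AA1 already lay above the model at FUCO-1, where HSPA1A was not called. Those of HSPA6 and HSP90AA1 also lay above it at FUCO-0.5.

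RES gave both directions. Against the model, HSPA6 was higher by 1.14 ± 0.309 on the log2 scale, HSP90AA1 by 0.60 ± 0.0864, HSPH1 by 0.37 ± 0.111, HSPA8 by 0.34 ± 0.0998, DNAJB1 by 0.23 ± 0.0832 and BAG3 by 0.17 ± 0.0928. HSPB1 was lower with a log2 fold change of −1.11 ± 0.115 and HSPA1A with −0.95 ± 0.163, and HSF1 overlapped the model. HSPA6 and HSPA1A, both inducible HSP70 genes that were higher at FUCO-2, therefore stood on opposite sides of the model with RES. With RES 5 of the 9 were called higher and 2 lower, beside 24.4% and 25.1% of all genes (49.4% in all), and 7 of the 9 did not overlap the model, beside 64%. Nothing is read from these counts, since the values guided the choice. The summed level of the hepatocyte markers was also the lowest of all groups, with 7 of the 8 markers lower than in the model and 1 higher, and their part was not tested. The FUCO and RES values all use the same 3 model libraries, and as the RES dose is not given no comparison at matched dose was made.

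A change of more than 1 on the log2 scale was reached, among the members called, by HSPA6 in the model and at FUCO-0.5 against Con, at FUCO-1, at FUCO-2, with RES and between the FUCO doses, and also by HSPA1A at FUCO-2 and HSPB1 with RES. Over all genes, the share called with such a change was 1.95% in the model against Con, 0.268% at FUCO-0.5 against the model, 2.38% at FUCO-0.5 against Con, 0.495% at FUCO-1, 1.6% at FUCO-2, 9.91% with RES and 0.577% between FUCO-1 and FUCO-2.

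**Figure D3:**
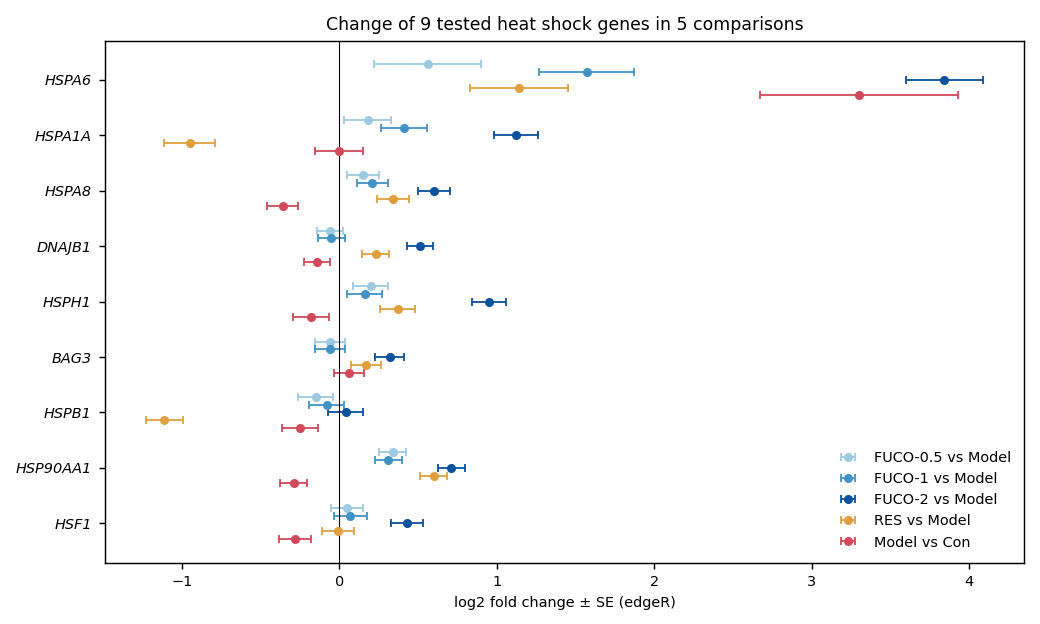
Log2 fold change with its SE (edgeR) of the 9 genes tested, in 5 comparisons marked by colour, on the x axis, with genes on the y axis. HSPA6 reaches 3.84 at FUCO-2 and 3.30 in the model against Con, and HSPA1A and HSPB1 lie left of 0 with RES.

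The remaining genes of the cytosolic system were taken as 5 lists, of which 53 of 59 genes were tested. These lists were also drawn up with earlier results known, and genes that complete a count of 5 or fewer were chosen after their values were seen. At FUCO-2 against the model, 20 of the 53 were called higher and 3 lower, beside 10.8% and 9.71% of all genes. HSP90 and its cochaperones held the most of any list, with 9 of 16 higher and a median log2 fold change of 0.34. TTC4, among these 9, held 11, 15 and 15 counts at FUCO-2 and 2, 9 and 4 in the model. It passed the filter on low counts through groups in which it was higher, so its call supports no rise. CHORDC1, an HSP90 cochaperone, had the largest rise of the genes called with a mean of at least 1 CPM (0.81 ± 0.0997, adjusted p = 3.43e-06 by edgeR). It went from 20.6, 22.1 and 28.6 CPM in the model to 42.2, 43.9 and 39.3. Its promoter, like those of HSP90AB1, DNAJA1, DNAJB6 and SERPINH1, holds the 3-unit letters. DNAJB6 was not called at FUCO-2. All 10 J-domain genes of the list had a window, and DNAJB4 and DNAJC2 were called higher without the 3-unit letters.

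Beside 10.8% of all genes, 4 of 13 of the HSP70 system were called higher at FUCO-2. These were HSPA4L (0.66 ± 0.119, adjusted p = 0.000363), an exchange factor related to HSPH1, BAG2 (0.48, adjusted p = 0.00033), the HSP70-interacting protein ST13 (0.33, adjusted p = 0.00111) and HSPA12A. Of the J-domain proteins DNAJB4 (0.53, adjusted p = 0.000647), DNAJA1 (0.40, adjusted p = 0.00266) and DNAJC2 (0.31, adjusted p = 0.0133) rose and DNAJB5 fell (−0.55, adjusted p = 0.0065). CRYAB was the small heat shock protein called higher, with 14, 21 and 9 counts at FUCO-2 and 5, 5 and 2 in the model. HSPA12A held 9, 16 and 10 counts at FUCO-2 and 3, 7 and 4 in the model. Both passed the filter on low counts through groups in which they were higher, so their values are a description and their calls, which the counts include, support no rise.

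Of HSF factors and genes known to respond to HSF1, 3 of 9 rose and 2 fell at FUCO-2, beside 10.8% and 9.71% of all genes. IER5 (0.32, adjusted p = 0.0445), ZFAND2A (0.29, adjusted p = 0.0395) and the collagen chaperone SERPINH1 (0.22, adjusted p = 0.0467) rose, and UBB, which encodes ubiquitin, was among those that fell (−0.39, adjusted p = 0.00541).

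The FUCO-1 to FUCO-2 step called 10 of the 53 genes higher, beside 4.07% of all genes. CHORDC1 (0.73, adjusted p = 6.37e-05), FKBP4 (0.36, adjusted p = 0.0102), DNAJB4 (0.52, adjusted p = 0.00287), HSPA4L (0.50, adjusted p = 0.0111) and IER5 (0.53, adjusted p = 0.00604) were among them. FKBP4, an immunophilin that binds HSP90, was the list gene that rose at FUCO-1 against the model (0.37 ± 0.0844, adjusted p = 0.0131), and BAG4 (0.40 ± 0.0896, adjusted p = 0.016) was the one that rose at FUCO-0.5. Of all genes, 0.893% were called higher at FUCO-1 and 0.289% at FUCO-0.5. The BAG4 call was lost without model replicate 1 or FUCO-0.5 replicate 2. With the members 3 of 62 genes were called at FUCO-1, beside 3.21% of all genes. The 3 became 1 without model replicate 1, model replicate 2 or FUCO-1 replicate 2. Nothing is read from this count, which includes members whose values guided the choice. Together with the 9 genes above, 18 of 62 were called in the step from FUCO-1 to FUCO-2, beside 6.3% of all genes. The 18 became 8 without FUCO-2 replicate 2, 10 without FUCO-1 replicate 3 and 11 without FUCO-1 replicate 1.

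In the model against Con, 6 of the 53 rose and 3 fell, beside 8.43% and 9.12% of all genes. HSPB8, the small heat shock protein that works with BAG3, rose by 0.76 ± 0.219 on the log2 scale (adjusted p = 0.018), HSPA4L by 0.47 (adjusted p = 0.0122), FKBP5 by 0.34 (adjusted p = 0.00839) and HSF2 by 0.31 (adjusted p = 0.031). BAG4 (0.27, adjusted p = 0.0477) and DNAJA2 (0.24, adjusted p = 0.0261) rose as well. ZFAND2A fell (−0.61 ± 0.0976, adjusted p = 9.91e-05), as did BAG2 (−0.25, adjusted p = 0.0497) and ST13 (−0.22, adjusted p = 0.0307). At FUCO-0.5 against Con, 7 of the 53 rose, beside 10.4% of all genes, led by HSPB8 (0.82, adjusted p = 0.00783) and HSPA4L (0.74, adjusted p = 0.000145), and ZFAND2A fell again (−0.88, adjusted p = 5.29e-07). With the 9 genes, 12 of 62 were called in the model, which became 4 without Con replicate 2, Con replicate 3 or model replicate 2 and 7 without model replicate 1.

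With RES, 23 of the 53 rose and 8 fell, beside 24.4% and 25.1% of all genes. HSP90 and its cochaperones again had the largest share, with 12 of 16 higher, led by FKBP5 (0.65 ± 0.0846, adjusted p = 7.73e-07), whereas CHORDC1 did not pass (0.14, adjusted p = 0.277). HSPA4L rose by 1.26 ± 0.115 (adjusted p = 2.24e-09), from 11.2, 10.8 and 9.86 CPM in the model to 24.4, 26.7 and 25.6. HSPA2, an HSP70 best known from the testis, fell (−1.17 ± 0.204, adjusted p = 4.22e-05), and DNAJB4 (0.79) rose while DNAJB5 (−0.73) fell, as both did at FUCO-2. HSF2BP fell (−0.54, adjusted p = 0.00483) and IER5 rose (0.54, adjusted p = 0.000296).

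**Figure D4:**
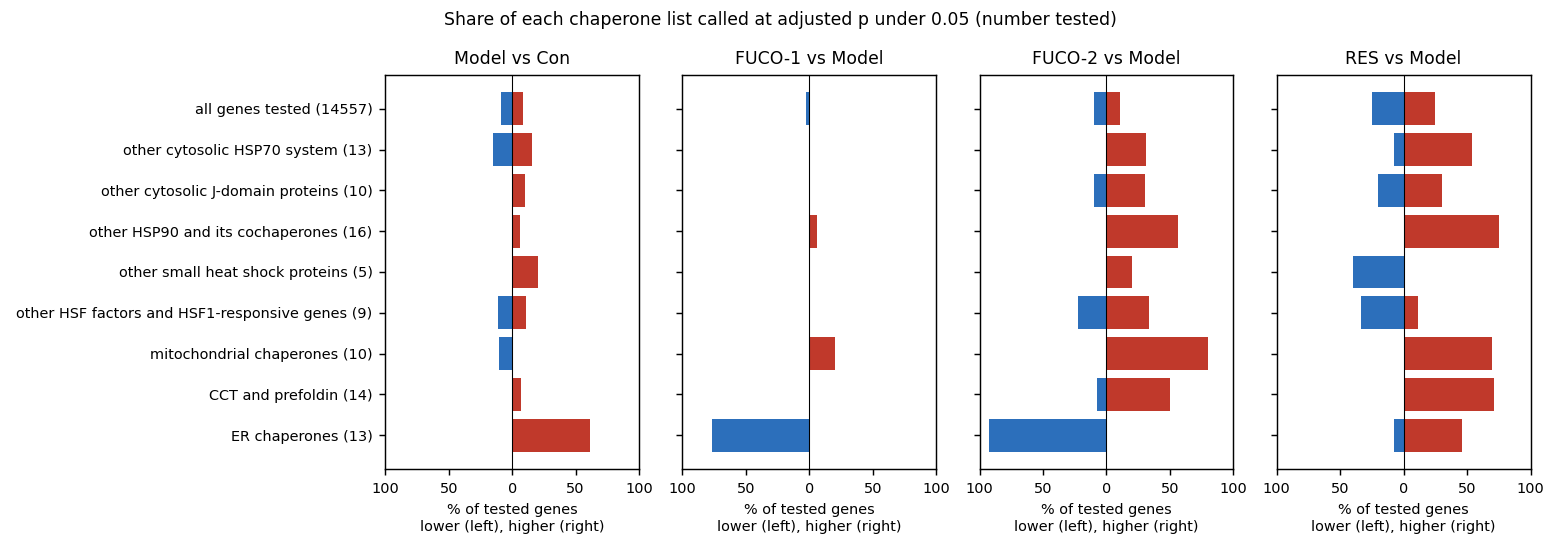
Share of each chaperone list called higher (right, red) or lower (left, blue) at an adjusted p under 0.05, in percent of the genes tested, in 4 comparisons, with the number tested beside each list and all 14557 genes at the top. At FUCO-2, 9 of 16 HSP90 genes and cochaperones were higher and 12 of 13 ER chaperones were lower.

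Genes that carry the 3-unit letters were also counted without the 3 members among them. The rest still include the list genes CHORDC1, DNAJA1, SERPINH1 and HSPD1, called higher at FUCO-2. They also include HSP90AB1, whose FUCO-2 libraries (1577.9, 1934.5 and 1717.6 CPM) all lay above the model (1281.9, 1355.3 and 1402.7), and DNAJB6, which was not called. A count without these list genes was not made, so the shares below do not describe genes outside the chaperone lists. Of 53 such genes tested, 9 (17%) were higher at FUCO-2 against the model, beside 10.8% of the 11524 genes with a promoter in the table, and 4 (7.55%) were lower beside 9.82%. Their median log2 fold change was 0.03, against 0.01 for all genes with a promoter. In the model against Con 7 (13.2%) were higher beside 8.43%, with a median of −0.04, and 3 (5.66%) were lower beside 9.07%. At FUCO-1 the calls among the 53 were 2 lower (3.77% beside 2.43%), in the step from FUCO-1 to FUCO-2 they were 6 higher (11.3% beside 4.05%), and with RES 15 were higher (28.3% beside 25.3%) and 13 lower (24.5% beside 24.8%). A spelling match is a description of these letters and not evidence of binding.

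Over the 18 libraries, the members did not all follow one pattern. In log2 CPM, Pearson's r was 0.86 between HSPA8 and DNAJB1 and between HSPH1 and HSP90AA1. It was 0.83 between DNAJB1 and HSPH1 and 0.70 between HSPA1A and HSPB1, whereas it was −0.43 between HSPB1 and HSP90AA1. For HSPA6, r with the other members ran from −0.20 (HSPB1) to 0.67 (HSPH1). These r describe libraries that share groups, depth and scaling and carry no test. Among 13076 genes compared, the one most like HSPA6 was the metallothionein MT2A (r = 0.925), with means of 0.0373, 0.808, 2.39, 4.72, 31.0 and 13.7 CPM from Con to RES, followed by AKAP12 (0.907), COPS7B (0.904), FBXO41 (0.903) and RCC1 (0.894). MT2A and HSPA6 shared the order of the groups up to FUCO-2, and MT2A with RES lay above FUCO-1 where HSPA6 lay below it. The closest genes were the mitochondrial chaperonin HSPD1 for HSP90AA1 (r = 0.972), ZNF219 for HSPB1 (0.989), CPNE7 for HSPA1A (0.964), the ribosomal protein RPL4 for HSPA8 (0.881), ZFP69B for DNAJB1 (0.904), KIAA1549 for HSPH1 (0.902), the kinase PIM3 for BAG3 (0.889) and the calcium channel CACNA1H for HSF1 (0.936).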

How the data were processed

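RNA-seq counts per gene symbol were deposited for 18 Hep3B libraries, 3 in each of 6 groups assigned from the sample titles. The authors made these counts with fastp, STAR, GRCh38 and featureCounts and applied no normalization to them. Strand use and the treatment of reads with several matches are not given in the sources used here. Differential expression used edgeR 4.0.16 in R 4.3.3 (filterByExpr with a minimum count of 10 and a minimum total of 15, TMM factors, 1 quasi-likelihood fit of all 18 libraries, prior count 0.125). A gene was called at a Benjamini-Hochberg adjusted p under 0.05 over all 14557 genes tested, which hold 99.9% of the counts. An SE is the log2 fold change divided by the root of F. CPM used TMM-scaled library sizes. Library totals ran from 16916688 to 23083498 counts. HSPA6 ratios carry exact 95% counting intervals. The study's methods use DESeq2, run here as an alternative (1.42.0). The fit was tested on simulated counts.

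The members, the other lists and the tests were chosen with earlier results of these data known. Named genes are the members, the list genes with the largest rise and fall among those called with a mean of at least 1 CPM, the 5 genes most correlated with HSPA6 and the closest gene for each other member. Promoters come from RefSeq (GRCh38.p14), and transcript lengths and shared 150-base windows from GENCODE v44. Alternatives were DESeq2, 2 groups only, RLE factors, no filter, at least 10 counts in every library, a replicate block, a prior count of 2, summed paralogs, a DEG threshold (absolute log2 fold change over 1) and leaving out each library. A further fall in the list of HSF factors and HSF1-responsive genes is not reported here.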

Additional observations from a re-analysis of the deposited data

How the results depend on the processing

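Of 1215 values of single members under the alternatives, 1144 kept their direction and their side of the threshold, 59 lost a call, 12 gained one and 0 changed sign. Members with a log2 fold change near 0 in the main fit were left out of this count beforehand. The count therefore cannot show how often such values change sign. HSPA6 gave no value with at least 10 counts in every library, because Con held fewer. Adding the log2 fold change threshold of 1 left 1 of the 12 heat shock genes called in the model against Con, 0 of 2 at FUCO-0.5 against the model, 1 of 10 at FUCO-0.5 against Con, 1 of 3 at FUCO-1, 5 of 31 at FUCO-2, 7 of 38 with RES and 1 of 18 between the FUCO doses. It left 1 of 3, 0 of 1, 1 of 2, 1 of 2, 2 of 8, 2 of 7 and 1 of 8 members in the same order. The 5 of 31 at FUCO-2 include HSPA12A, CRYAB and TTC4, which passed the filter on low counts through groups in which they were higher. With the 2 groups fitted alone, 5 members were called in the model against Con and 6 heat shock genes at FUCO-1. With no filter on low counts, 5 members were called in the model against Con. With at least 10 counts in every library, 1 member was called at FUCO-0.5 against Con and 1 at FUCO-1. Leaving out 1 library gave from 4 to 14 heat shock genes in the model against Con, 0 to 2 at FUCO-0.5 against the model, 7 to 14 at FUCO-0.5 against Con, 1 to 4 at FUCO-1, 24 to 33 at FUCO-2, 34 to 40 with RES and 8 to 22 between the FUCO doses. For the members these ranges were 1 to 4, 0 to 1, 1 to 4, 1 to 2, 7 to 8, 5 to 7 and 4 to 8. The cause of these shifts was not tested. Whether replicate numbers pair the libraries was not tested. Over 45 pairs with the same number, the correlation of deviations ran from −0.20 to 0.19, with 7 over 0.1. Of the 18 libraries, 10 were closest to their own number. A replicate block raised the all-gene calls in every comparison, such as from 467 to 510 at FUCO-1 against the model. With a replicate block the counts of heat shock genes were 11, 2, 10, 3, 30, 38 and 19 and those of members 3, 1, 2, 2, 8, 7 and 8 in the same order. Over all genes, FUCO-1 against the model called 467, or 976 with the 2 groups alone, FUCO-0.5 against the model called 211, or 351 and 354 with the 2 groups alone and with no filter, and FUCO-2 against FUCO-1 called 917, or 533 with the 2 groups alone. Leaving out 1 library took these all-gene counts as low as 220 (FUCO-1, without model replicate 2), 110 (FUCO-0.5, without model replicate 2) and 366 (FUCO-2 against FUCO-1, without FUCO-2 replicate 2, or 398 without FUCO-1 replicate 3). It took the model against Con from 2555 to 1597 without Con replicate 3 and FUCO-2 against the model from 2990 to 1972 without model replicate 3, so the shares of all genes called move with single libraries too. Within 250 bases before the start, 0.441% of promoters held 3 units and 11.6% at least 2, and the members with them stayed at 3 and 7 of 10. Depth limits the size of any HSPA6 difference from Con (3 counts), and HSPA1B (0 to 5 counts a library) could not be tested.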

Other observations

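Chaperones of other compartments gave values that differ by compartment. At FUCO-2 against the model, 8 of 10 mitochondrial chaperones rose, with a median log2 fold change of 0.43, led by HSPD1 (0.55 ± 0.0782, adjusted p = 2.28e-05 by edgeR), the chaperonin of the matrix, which went from 866, 934 and 948 CPM to 1202, 1490.4 and 1335. Of the CCT chaperonin and prefoldin, which fold actin and tubulin, 7 of 14 rose, led by CCT4 (0.53, adjusted p = 6.4e-06), and PFDN1 fell (−0.21, adjusted p = 0.0344). In contrast 12 of 13 ER chaperones fell. SDF2L1, named after its value was seen (−0.78 ± 0.123, adjusted p = 7.88e-05) and the lectin chaperone CALR (−0.78 ± 0.0715, adjusted p = 5.76e-08) fell by the same log2 value, CALR from 1819, 1766.5 and 1889 CPM to 1103, 1012 and 1078. Of all genes, 10.8% were higher and 9.71% lower.

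The ER chaperones had risen in the model, where 8 of 13 were higher than in Con (CALR 0.59, adjusted p = 2.73e-06), beside 8.43% of all genes. They were lower than in the model already at the doses at which few cytosolic genes were called, 6 of 13 at FUCO-0.5 (beside 1.16% of all genes) and 10 of 13 at FUCO-1 (beside 2.32%), with DNAJB9, a J-domain protein of the ER, falling most (−0.81, adjusted p = 5.61e-06, and −1.01, adjusted p = 1.03e-07). With RES, 7 of 10 mitochondrial chaperones rose, led by HSPA9 (0.68), 10 of 14 CCT and prefoldin genes rose, led by PFDN6 (0.87), and 6 of 13 ER chaperones rose, led by HYOU1 (0.54), while CALR fell (−0.24, adjusted p = 0.00651). Of all genes, 24.4% were higher and 25.1% lower with RES. These comparisons share the model libraries, and the difference between compartments was not tested.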
